A study of Mus musculus with 4 samples.

Results

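The 10 genes described here encode parts of the contractile apparatus of heart muscle: 6 thin filament genes (Actc1, Acta1, Tpm1, Tnnt2, Tnni3 and Tnnc1) and 4 Z-disc genes (Actn2, Ldb3, Csrp3 and Tcap). They were taken by name from the 15746 genes of the deposited table, which lists each of the 10, and each passed the filter on low values that left 12150 genes for testing. The table holds RNA sequencing of adult mouse hearts labelled WT, split into isolated mitochondria (n = 2 libraries) and the remaining tissue, called rest (n = 2 libraries), and the study compared the fractions to find RNA enriched with mitochondria. The mitochondria were treated with digitonin, which opens membranes rich in cholesterol, and with RNase A before extraction, and the rest was the pellet of a slow spin that holds cell debris. No sex or exact age is given in the labels, and nothing there says whether libraries came from separate animals, so that p-values measure only the spread between these samples.

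Background on the proteins helps to read the values. Actin polymerises into the thin filament, tropomyosin lies along it, and the troponin complex of subunits T, I and C sits on tropomyosin and lets calcium switch contraction on. The barbed ends of the thin filaments are crosslinked by alpha-actinin at the Z-disc, where small scaffold and sensor proteins also bind. All of these proteins are encoded in the nucleus and made in the cytosol, and their mRNAs are among the abundant transcripts of a cardiomyocyte.

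All 4 libraries carried the heart's muscle signature. Each of the 9 cardiomyocyte markers was listed, with summed normalized counts of 179089 to 253933 a library. Of these, 5 were higher and 2 lower in both mitochondrial libraries, against 27.7 and 33.4% of all tested genes. Of 8 skeletal muscle markers, the adult fast genes Tnnt3, Tnni2, Tnnc2, Actn3 and Mylpf were not listed. The other 3, Myh1, Myh2 and Myh4, were listed and summed to 105 and 150 in mitochondria against 81 and 103 in the rest. Between 93.5 and 97.6% of all values in mitochondria, and 63.2 to 67.5% in the rest, fell on the mitochondrial chromosome. A normalized count is the read count divided by the library's size factor. By estimate, 1 read was worth 3.87 and 2.55 normalized counts in mitochondrial replicates 1 and 2. In rest replicates 1 and 2 it was worth 0.264 and 0.365. The same normalized count therefore rests on fewer reads in mitochondria. Markers of 5 nuclear RNAs summed to 13660 and 8760 in mitochondria against 43200 and 45717 in the rest, with 4 of 5 lower in both mitochondrial libraries. Fibroblast markers summed to 8386 and 3558 against 2248 and 3200, with 5 of 7 higher in both, against 27.7% of all tested genes. Endothelial markers summed to 2418 and 2093 against 3710 and 3318, with 7 of 8 lower in both mitochondrial libraries, against 33.4% of all tested genes. Smooth muscle markers, of which Tagln was not listed, summed to 1690 and 1763 against 2745 and 3239, with 2 of 6 lower in both. Macrophage markers summed to 603 and 342 against 207 and 294, with 5 of 7 higher in both. Blood markers summed to 50 and 341 against 824 and 440, with 5 of 5 lower in both. At an adjusted p under 0.05 in limma, 1 cardiomyocyte marker was called higher and 1 smooth muscle and 1 nuclear RNA marker lower. None of the fibroblast, endothelial, macrophage or blood markers was called. Over all tested genes, 2.16% were called higher and 1.39% lower. Both fractions are parts of homogenized tissue, and the mitochondria were treated with RNase A, so that marker sums do not count cells. The part of these differences in the results below was not tested.

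In the values as deposited, the thin filament transcripts other than Acta1 and 2 of the Z-disc transcripts, Tcap and Csrp3, were higher in both mitochondrial libraries, while Actn2 and Ldb3 were not, and all 10 were lower when scaled to the library total. As deposited, 7 of the 10 had both mitochondrial libraries above both rest libraries, against 27.7% of all tested genes, and 1, Ldb3, had both below, against 33.4%. Among protein-coding genes the share above varied with mRNA length, from 77.0% up to 1 kb to 12.2% over 4 kb. The median log2 fold change of the 10 genes, mitochondria over rest, was 1.37 (thin filament 1.48, Z-disc 0.69), beside a median of -0.14 over all tested genes. At an adjusted p under 0.05 in limma, only Tnnc1 was called higher, 1 of 10 against 2.16% of all tested genes, and none was called lower, against 1.39%. At an unadjusted p under 0.05, 7 of the 10 were higher, against 14.1%, and 0 were lower, against 16.2%. Without any 1 of the 4 libraries, limma called 0 of all 12150 genes, Tnnc1 included. These directions hold for values scaled by median-of-ratios size factors: scaled to the library total, most of which falls on the mitochondrial chromosome, all 10 were called lower by limma, with a median of -2.61 beside -3.93 over all tested genes.

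**Figure D1:**
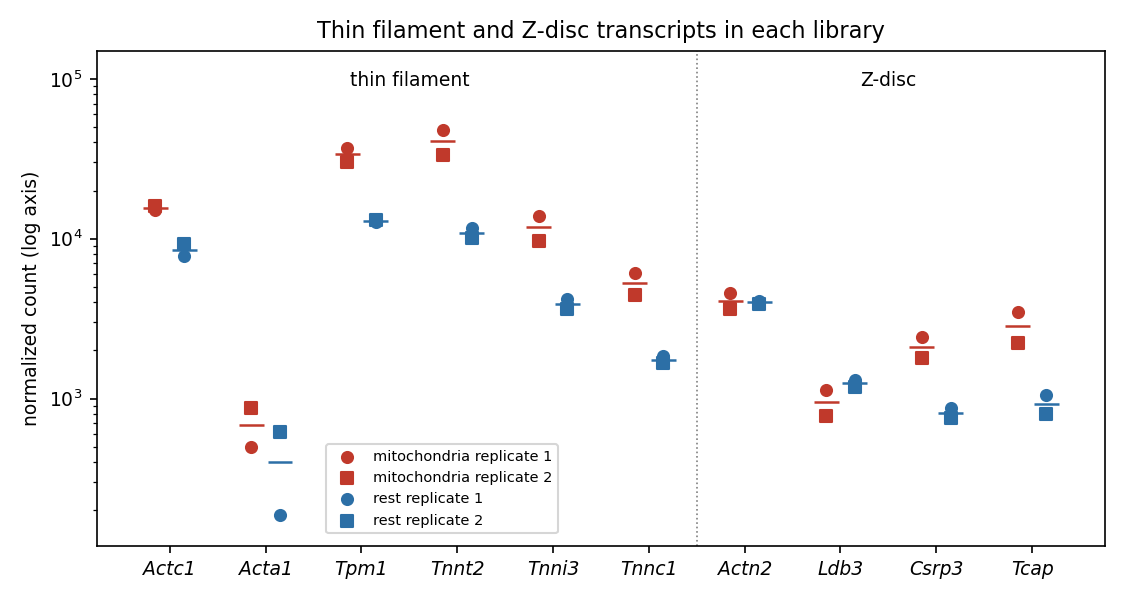
Normalized counts (log axis) of the 10 genes in each library, with circles for replicate 1, squares for replicate 2 and short lines for the mean of the 2 libraries. Under the deposited scaling Tnnt2 reads 47913 and 33524 in mitochondria against 11712 and 10145 in the rest, while the fractions overlap for Acta1 and Actn2 and Ldb3 is lower in mitochondria; scaled to the library total all 10 genes are lower there.

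A stretch of the 2 sarcomeric actins is shown first, because reads from such close paralogs could be assigned to the wrong gene. Actc1, the alpha-actin of cardiac muscle (ENSMUSG00000068614, chr2:114047282-114053548, minus strand), and Acta1, the alpha-actin of skeletal muscle (ENSMUSG00000031972, chr8:123891769-123894751, minus strand), have coding sequences of 1131 bases each, of which 976 (86.3%) are identical (GENCODE M21 transcripts, GRCm38). The stretch of 150 coding bases with the most differences, bases 406 to 555, holds 30, printed in capitals:

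Actc1: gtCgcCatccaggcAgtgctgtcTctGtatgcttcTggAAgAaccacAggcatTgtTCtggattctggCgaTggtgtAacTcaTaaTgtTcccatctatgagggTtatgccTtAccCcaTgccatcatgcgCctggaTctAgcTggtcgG

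Acta1: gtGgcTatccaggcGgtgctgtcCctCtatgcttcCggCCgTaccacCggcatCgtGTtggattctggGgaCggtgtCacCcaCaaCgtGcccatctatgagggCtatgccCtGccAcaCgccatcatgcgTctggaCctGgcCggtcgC

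The longest identical run of the coding sequences is 29 bases, at coding bases 964 to 992, well under the read length of 75 bases. None of the 1399 windows of 75 bases along the Actc1 mRNA occurred in another gene's transcripts. In Acta1, 6 of 1372 windows (0.437%) occurred in other genes, at most in Gm47692. The other 8 genes shared no window of that length with any other gene. Error-free reads of full length from these principal mRNAs were thus unique to their gene almost everywhere.

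Among the actins, Actc1 was the abundant form in every library. Actc1 read 15205 and 16017 normalized counts in mitochondria and 7768 and 9275 in the rest. Both mitochondrial libraries lay above both rest libraries, with a log2 fold change of 0.88 (SE 0.229, 95% interval 0.28 to 1.48), which did not pass the test in limma (adjusted p = 0.0886). Acta1 read 500 and 875 in mitochondria and 187 and 614 in the rest. Here the fractions overlapped, because rest replicate 2 exceeded mitochondrial replicate 1. The log2 fold change of 0.96 had a 95% interval from -0.70 to 2.62 (SE 0.635, limma, adjusted p = 0.359). Within each replicate number Acta1 was higher in mitochondria. With a term for replicate number in the model the SE was 0.268 (limma, adjusted p = 0.0863). The labels do not say whether shared numbers mark the same heart. Replicate 2 held 1.75 times the Acta1 of replicate 1 in mitochondria, on about 129 and 343 reads in replicates 1 and 2. In the rest it held 3.28 times, on about 708 and 1680 reads. Actc1 differed between replicates by 1.05 and 1.19 times. Per kilobase of mRNA, Actc1 was 29.9 and 18.0 times Acta1 in mitochondria and 40.8 and 14.8 times in the rest, so that the ratio differed more between replicates than between fractions.

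Acta1 was not the only muscle gene with more signal in both second replicates. Myl7 and Myl4, the light chains of atrial myosin, were 9.11 and 4.47 times as high in replicate 2 in mitochondria, from about 5 and 22 reads in replicate 1, and 2.93 and 2.39 times in the rest, and Ankrd1, a stress-responsive repeat protein of the sarcomere, was 1.52 and 2.44 times as high. These 3 genes were chosen after their values were seen. Of the 10 genes, 8 were higher in replicate 1 of mitochondria and 7 in replicate 1 of the rest, and 9 were ordered alike in the fractions. How much atrium each heart sample held is not given in the sources used here, and its part in these values was not tested.

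The promoters of both actin genes (RefSeq, GRCm38.p6, 250 bases before to 50 after the start) are printed with the CArG box, the element bound by serum response factor, and the letters TATAAA in capitals. The Actc1 window is chr2:114052826-114053125 and the Acta1 window chr8:123894726-123895025, both on the minus strand:

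Actc1: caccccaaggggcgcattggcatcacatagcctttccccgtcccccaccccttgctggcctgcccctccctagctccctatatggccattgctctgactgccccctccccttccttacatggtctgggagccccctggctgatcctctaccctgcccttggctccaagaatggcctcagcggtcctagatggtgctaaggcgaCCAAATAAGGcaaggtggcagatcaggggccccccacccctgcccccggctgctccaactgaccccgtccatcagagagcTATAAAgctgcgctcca

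Acta1: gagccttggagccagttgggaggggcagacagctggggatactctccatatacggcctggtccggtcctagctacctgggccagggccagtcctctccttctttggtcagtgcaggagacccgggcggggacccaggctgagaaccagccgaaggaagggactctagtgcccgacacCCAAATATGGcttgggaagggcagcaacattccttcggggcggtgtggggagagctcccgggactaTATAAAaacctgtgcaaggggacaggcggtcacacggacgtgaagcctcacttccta

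Both strands were searched in 12 promoters of 9 of the 10 genes, Tcap having no entry. A CArG box stood in 4 of the 12 promoters, those of Acta1, Actc1 and Ldb3, against 1.63% of all 32851 promoters. The 2 Ldb3 windows overlap and hold the same box. TATAAA stood in 2 of the 12, those of Acta1 and Actc1, against 13.6%. CATTCC, the core bound by TEAD factors, was found in 4 of the 12, for Acta1, Tnnc1, Tnnt2 and Tpm1, against 14.7%. The MEF2 box was found in 0 of the 12, against 0.557%. The genes with a CArG box had log2 fold changes between fractions of 0.96 (Acta1), 0.88 (Actc1) and -0.41 (Ldb3).

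Of the regulatory proteins of the thin filament, tropomyosin and the 3 troponin subunits were each higher in both mitochondrial libraries under the deposited scaling, though lower when scaled to the library total. Tpm1, the alpha-tropomyosin gene (ENSMUSG00000032366, chr9:67022590-67049406, minus strand), read 37169 and 30323 normalized counts in mitochondria and 12696 and 13054 in the rest. The fractions stood apart, 2.61-fold on the fitted scale, with a log2 fold change of 1.38 (SE 0.265) that did not pass the test (limma, adjusted p = 0.0596). With quantile normalization, which forces the libraries to the same distribution, its log2 fold change turned to -0.12.

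Tnnt2, the tropomyosin-binding troponin subunit (ENSMUSG00000026414, chr1:135836354-135852260, plus strand), had the largest log2 fold change of the 10 genes under the deposited scaling. It read 47913 and 33524 normalized counts in mitochondria, on about 12371 and 13143 reads, and 11712 and 10145 in the rest, on about 44326 and 27759. The lowest mitochondrial library was above the highest rest library, a 3.68-fold difference with a log2 fold change of 1.88 (SE 0.306, 95% interval 1.08 to 2.68) and an adjusted p of 0.0513 in limma, just outside the threshold. With quantile normalization its log2 fold change was 0.75 (limma, adjusted p = 0.152), below those of Tcap (1.15), Tnnc1 (0.92), Csrp3 (0.91), Tnni3 (0.79) and Acta1 (0.79).

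Tnni3, the inhibitory subunit of cardiac troponin (ENSMUSG00000035458, chr7:4518305-4524229, minus strand), read 13912 and 9681 in mitochondria and 4188 and 3615 in the rest. Its log2 fold change was 1.58 (SE 0.263, limma adjusted p = 0.0528). Its exons overlap those of Dnaaf3 on the same strand, and reads over several genes were left out by the authors in all libraries. Tnnc1, the calcium-binding subunit (ENSMUSG00000091898, chr14:31208312-31211729, plus strand), read 6108 and 4472 in mitochondria and 1849 and 1657 in the rest. Under the deposited scaling it rose 2.98-fold, with a log2 fold change of 1.58 (SE 0.227, 95% interval 0.98 to 2.17), but was lower when scaled to the library total, and it was the only 1 of the 10 past the threshold (limma, adjusted p = 0.0469). Without any 1 library the call was lost, at log2 fold changes between 1.35 and 1.80.

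The troponin subunits can be compared within a library, where the size factor cancels. Per kilobase, the ratio of Tnni3 to Tnnc1 was 1.80 and 1.71 in mitochondria and 1.79 and 1.72 in the rest, so that the libraries of both fractions overlapped. The ratio of Tnnt2 to Tnni3 was 2.62 and 2.63 in mitochondria and 2.13 and 2.13 in the rest, and that of Tnnt2 to Tnnc1 was 4.71 and 4.50 against 3.81 and 3.68. Both ratios with Tnnt2 stood apart by 1.23 times, more than the spread between replicates, whatever size factor is used. Quantile normalization is not a size factor. With it, the log2 fold change of Tnnt2 (0.75) lay below those of Tnni3 (0.79) and Tnnc1 (0.92). Relative to Tnnt2, Tpm1 was lower in mitochondria, at 0.490 and 0.572 against 0.685 and 0.814. With 2 libraries against 2, no exact permutation test of a single ratio can reach a p under 0.05, so these ratios carry no p.

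**Figure D2:**
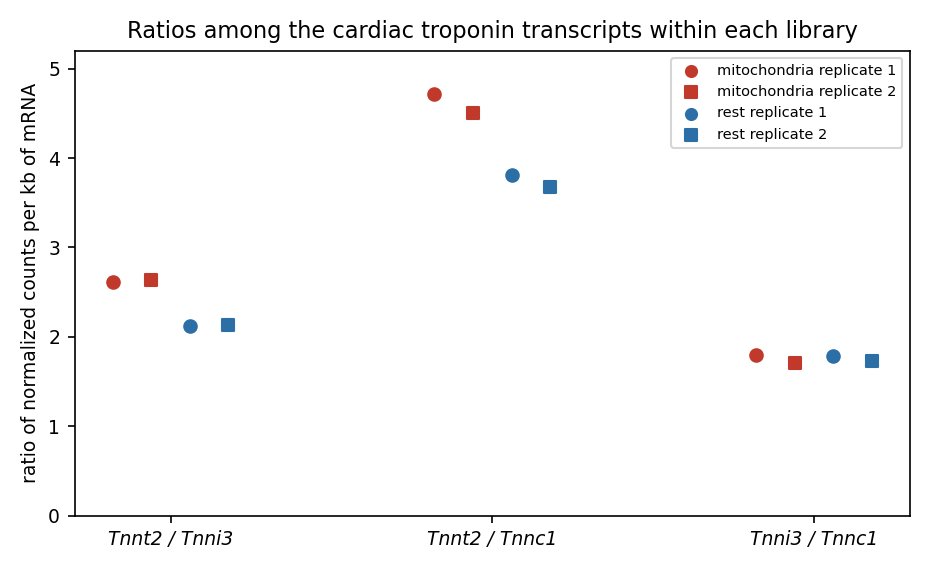
Ratios of normalized counts per kilobase of mRNA between cardiac troponin transcripts, each computed within a library, with circles for replicate 1 and squares for replicate 2. Tnnt2 is 2.62 and 2.63 times Tnni3 in mitochondria against 2.13 and 2.13 in the rest, while Tnni3 over Tnnc1 lies between 1.71 and 1.80 in all 4 libraries.

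At the Z-disc, Tcap and Csrp3 had higher values in mitochondria under each scaling tried except the library total, and Actn2 and Ldb3 did not have them in both libraries under the deposited scaling. Tcap, which encodes telethonin and caps the end of titin (ENSMUSG00000007877, chr11:98383811-98384953, plus strand), read 3474 and 2217 normalized counts in mitochondria and 1058 and 796 in the rest. Csrp3, which encodes the muscle LIM protein (ENSMUSG00000030470, chr7:48830398-48848033, minus strand), read 2432 and 1793 in mitochondria and 878 and 752 in the rest. Both were higher in each mitochondrial library than in each rest library, with log2 fold changes of 1.60 (SE 0.294, limma adjusted p = 0.0568) and 1.36 (SE 0.222, limma adjusted p = 0.0514), and both turned lower when scaled to the library total.

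Actn2, the sarcomeric alpha-actinin (ENSMUSG00000052374, chr13:12269426-12340760, minus strand), read 4570 and 3625 in mitochondria and 4087 and 3894 in the rest. The rest libraries lay between the mitochondrial ones, and the log2 fold change of 0.03 had a 95% interval from -0.51 to 0.57 (limma, adjusted p = 0.934), which bounds a difference under the deposited scaling without showing that there was none. Quantile normalization gave -0.64 (limma, adjusted p = 0.0322), and the scaling to counts outside the mitochondrial chromosome -0.84 (limma, adjusted p = 0.10). Ldb3, which encodes cypher or ZASP, a PDZ-LIM protein that binds alpha-actinin (ENSMUSG00000021798, chr14:34526603-34588682, minus strand), read 1131 and 781 in mitochondria and 1315 and 1180 in the rest. It was the only gene of the 10 with both mitochondrial libraries below both rest libraries, and its log2 fold change of -0.41 (SE 0.237, 95% interval -1.03 to 0.21) did not pass the test (limma, adjusted p = 0.310). It was called lower with quantile normalization, at -0.80 (limma, adjusted p = 0.0312), and when scaled to counts outside the mitochondrial chromosome, at -1.27 (limma, adjusted p = 0.0428). Without any 1 library its log2 fold change ranged from -0.67 to -0.14. Its mitochondrial values rest on about 292 and 306 reads.

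Z-disc transcripts were also compared within libraries. Per kilobase, Actn2 was 0.414 and 0.514 times Tcap in mitochondria and 1.22 and 1.54 times in the rest, and Ldb3 was 0.0603 and 0.0652 times Tcap against 0.230 and 0.275. Csrp3 was 0.738 and 0.853 times Tcap against 0.875 and 0.996, a narrower gap. Per kilobase, Tnnt2 was 181 and 183 times Ldb3 in mitochondria and 38.0 and 36.7 times in the rest. This 4.87-fold change exceeded the replicate spread. The pair joins the highest log2 fold change of the group under the deposited scaling (Tnnt2, 1.88) to the lowest (Ldb3, -0.41). It therefore does not compare filament with disc as classes. The Z-disc gene Tcap, at 1.60, lay above every thin filament gene of the group except Tnnt2.

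**Figure D3:**
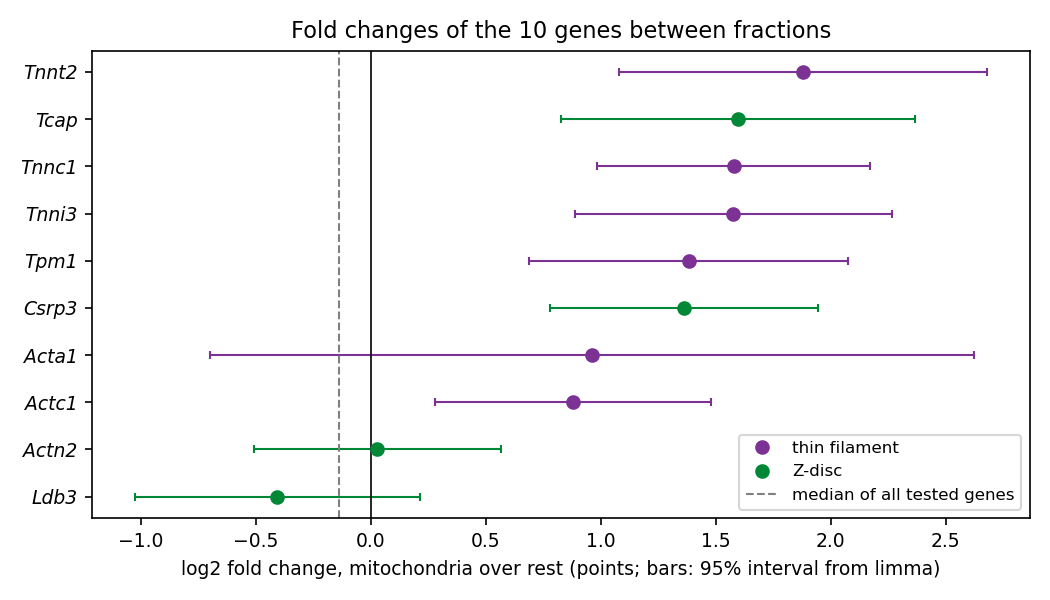
Log2 fold change of each gene, mitochondria over rest under the deposited scaling, with the 95% interval from limma as bars and the median of all 12150 tested genes as a dashed line. Estimates run from -0.41 for Ldb3 to 1.88 for Tnnt2, and the intervals of Acta1, Actn2 and Ldb3 include 0; scaled to the library total all 10 estimates are below 0.

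In order of level per kilobase of the principal mRNA, Tnnt2 was first in both fractions, at 33932 ± 8479 normalized counts per kilobase in mitochondria and 9107 ± 923 in the rest (SD, n = 2). In mitochondria Tpm1 followed at 17780, then Tnni3 at 12935 and Actc1 at 10598, whose libraries overlapped, and Tnnc1 at 7337. Tcap at 3002 and Csrp3 at 2350 also overlapped each other, and Actn2 at 1360, Acta1 at 475 and Ldb3 at 187 closed the order. In the rest, Tpm1 at 6783 and Actc1 at 5785 came before Tnni3 at 4278 and Tnnc1 at 2431. Actn2 at 1324 there stood above Tcap at 978 and Csrp3 at 907, which overlapped, as did Acta1 at 277 and Ldb3 at 244 at the end. Levels per kilobase depend on the transcript chosen. Divided by all annotated exons instead, which come to 7752 bases for Tnnt2 and 6485 for Tpm1, Actc1 led in mitochondria at 9648 per kilobase and Tnnt2 came to 5253.

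The 10 genes together took 2.97 and 1.95% of the normalized counts outside the mitochondrial chromosome in mitochondria and 1.79 and 1.61% in the rest, or 2.46% ± 0.721 against 1.70% ± 0.123 (SD, n = 2). Of protein-coding counts outside that chromosome they took 5.85% ± 0.319 against 2.24% ± 0.0527, and of all counts 0.0991% ± 0.0381 against 0.591% ± 0.0944. The direction of the share thus turns with the denominator. Within the group, Tnnt2 made up 34.3% ± 2.64 of the counts in mitochondria and 24.1% ± 2.16 in the rest, Actn2 3.48% ± 0.0407 against 8.80% ± 0.197, and Ldb3 0.805% ± 0.0694 against 2.75% ± 0.178, with the libraries apart for each. Tpm1 kept to 28.7% ± 0.906 and 28.4% ± 0.893, and its libraries overlapped.

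Each gene higher in both mitochondrial libraries under the deposited scaling had a principal mRNA under 2 kb, which the rule did not use. Acta1, whose fractions overlapped, also had an mRNA under 2 kb. Length did not order these genes fully, since Tpm1 had a log2 fold change of 1.38, above the shorter Csrp3 at 1.36. Tnnc1 (721 bases), Csrp3 (899), Tnni3 (912), Tcap (948) and Tnnt2 (1200) have the shortest principal mRNAs of the group, Actn2 (3013) and Ldb3 (5119) the longest, and Acta1 (1446), Actc1 (1473) and Tpm1 (1898) lie between. Across the 10 genes, log2 fold change and log2 length had a Pearson's r of -0.897 and a Spearman's rho of -0.685, as a description over genes that share the same 4 libraries and are not independent replicates. Over 10611 tested protein-coding genes the values were -0.422 and -0.427. By the study's methods, fragmentation of the RNA from mitochondria was adjusted to 1 min, and whether the rest was treated alike is not given in the sources used here, so that the part of library preparation in this relation was not tested.

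**Figure D4:**
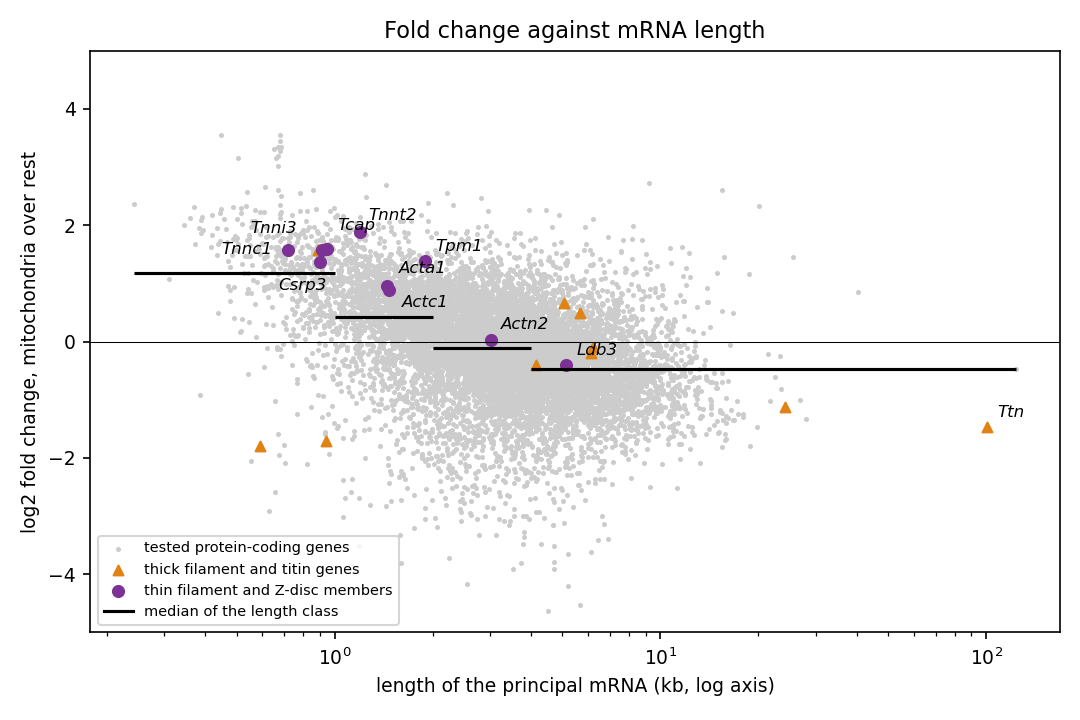
Log2 fold change, mitochondria over rest under the deposited scaling, against the length of the principal mRNA in kb (log axis) for 10611 tested protein-coding genes (grey, 1 of them outside the axis), the 10 genes (purple circles) and the thick filament and titin genes (orange triangles), with black lines at the median of each length class. The median falls from 1.18 up to 1 kb to -0.47 above 4 kb, and Tnnt2 and Tpm1 lie farthest above the median of their class; scaled to the library total all 10 genes are below 0.

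Set beside genes of like length under the deposited scaling, each of the 10 lay above the median of its class, by 0.06 to 1.46. Class medians were not computed with quantile normalization, where the median of the 10 was 0.77 and Tpm1 and Actn2 fell below 0. In the class up to 1 kb (509 genes, median log2 fold change 1.18, 77.0% with both mitochondrial libraries above both rest libraries), Tcap, Tnnc1, Tnni3 and Csrp3 were 0.42, 0.40, 0.40 and 0.18 above the median and exceeded 73.5, 72.3, 71.9 and 59.7% of the class. In the class from 1 to 2 kb (1863 genes, median 0.42), Tnnt2 was 1.46 above the median and exceeded 98.4% of the class, Tpm1 was 0.96 above it and exceeded 93.1%, and Acta1 and Actc1 were 0.54 and 0.46 above it and exceeded 79.8 and 75.5%. Actn2 in the class from 2 to 4 kb (4289 genes, median -0.11) and Ldb3 in that above 4 kb (3950 genes, median -0.47) were 0.14 and 0.06 above their medians and exceeded 58.2 and 54.3%. In the class from 1 to 2 kb, 48.3% had both mitochondrial libraries above both rest libraries. In the class above 4 kb, which holds Ldb3, 51.5% had both below. With a length trend removed from each library, an alternative chosen after seeing the data, the log2 fold changes of Tnnt2 and Tpm1 were 1.14 and 1.11, those of the other 8 genes lay between -0.16 and 0.62, and 0 of the 10 were called by limma.

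The wider list of thin filament and Z-disc genes held 50 further names, of which Tnni1 and Myoz1 were not listed and 48 were tested. In limma, under the deposited scaling, 3 rose in mitochondria, 2 fell and 43 did not pass, while all 48 were called lower when scaled to the library total. Over all tested genes, 2.16% were called higher and 1.39% lower. Nexn, which encodes the actin-binding nexilin, rose by a log2 fold change of 1.26 (SE 0.188, adjusted p = 0.0473), Myoz2, which encodes the calsarcin of heart, by 1.11 (SE 0.171, adjusted p = 0.0487), and Smpx, which encodes a small muscle protein of the costamere, by 1.34 (SE 0.180, adjusted p = 0.0441). Flnc, which encodes the muscle filamin, fell by 1.65 (SE 0.207) and Xirp1, which encodes the actin-binding protein Xin, fell by 1.35 (SE 0.172), both at an adjusted p of 0.0427. The median of the 48 was 0.35, and 24 had both mitochondrial libraries above both rest libraries while 11 had both below, against 27.7 and 33.4% of all tested genes.

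Flnc read 643 and 480 normalized counts in mitochondria and 1685 and 1806 in the rest, and Xirp1 248 and 278 against 633 and 708. Nexn read 4450 and 4694 against 1737 and 2092. The fractions were apart for all 3. Without any 1 library, limma called 0 of the 48.

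The gene of the wider list with the highest mean normalized count over the 4 libraries, Xirp2, which encodes an actin-binding protein of the Z-disc and intercalated disc, read 12428 and 11084 normalized counts in mitochondria and 4778 and 4982 in the rest. The fractions were apart, with a log2 fold change of 1.27 (SE 0.201, limma adjusted p = 0.0502), although its principal mRNA of 11955 bases is longer than those of all 10 genes. Cmya5, another long muscle mRNA (11850 bases), had 0.44 and Nebl, the cardiac nebulette, -0.08. Log2 fold changes of the other abundant genes that did not pass were 1.10 for Ankrd1, 1.14 for Hspb7, 0.91 for Fhl2, 0.83 for Lmod2, which elongates thin filaments, 0.62 for Des, the intermediate filament desmin, 0.22 for Nrap and -0.72 for Fhod3. Over the 48 genes, r between log2 fold change and log2 length was -0.347 and rho -0.384, again as a description.

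The thick filament and titin genes, which build the sarcomere's other filaments, had values on both sides of 0. Of 11 tested, 1 was called higher, the ventricular essential light chain Myl3 with a log2 fold change of 1.61 (limma, adjusted p = 0.0469), and 0 were called lower, against 2.16 and 1.39% of all tested genes, and their median was -0.20. Quantile normalization called 5 of the 11 lower, and scaling to the library total all 11. Myl2, the ventricular regulatory light chain, had 1.58 (limma, adjusted p = 0.0551), Myom2 0.66 and Myom1 0.49. The myosin heavy chains Myh6 and Myh7 had -0.20 and -0.10, Mybpc3 -0.40, Ttn -1.47, Myl4 -1.71 and Myl7 -1.80, none past the threshold, and Myl7 rests on about 5 reads in mitochondrial replicate 1. The light chains Myl2 and Myl3, with mRNAs of 889 and 937 bases, lay where Tnni3 and Tnnc1 did. The list took 6.94% ± 2.17 of the counts outside the mitochondrial chromosome in mitochondria and 20.3% ± 3.0 in the rest (SD, n = 2), with the libraries apart. With that denominator the order was opposite to that of the 10 genes' share. Ttn had the largest counts of this list in the rest. It read 330174 and 295269 normalized counts there against 126054 and 100863 in mitochondria, so that the list's share leans on this gene. Of all counts both lists took less in mitochondria, this list 0.278% against 7.08%. By gene, 4 of the 11 had both mitochondrial libraries above both rest libraries and 3 had both below, against 27.7 and 33.4% of all tested genes.

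Within libraries, Tnnt2 per kilobase was 31.8 and 27.8 times Ttn in mitochondria and 2.97 and 2.87 times in the rest, a 10.2-fold change. Actc1 was 0.361 and 0.517 times Myh6 per kilobase in mitochondria and 0.175 and 0.238 times in the rest, 2.12 times higher on average, with the libraries apart in both ratios. Whether the difference between the lists exceeds that between short and long mRNAs was not tested.

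The genes most like the mean profile of the 10 were sought among 5509 others with a mean above 50 normalized counts, as the distance between log2 values over the 4 libraries, each centred on its gene's mean. They were Otulin (distance 0.0465), Chmp2a (0.0534), the processed pseudogene Gm6123 (0.0620), Bcl2l2 (0.0626) and Igbp1 (0.0696). Each was nearer to the mean profile than any of the 10 genes, which picking the nearest of 5509 makes likely. Among the 10, Tpm1 was nearest at 0.30 and Ldb3 farthest at 1.51. Otulin, for example, read 112 and 92 in mitochondria and 46 and 50 in the rest. Their mean normalized counts lay far below those of Tpm1.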

How the data were processed

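Total RNA of mitochondria and rest was made into libraries with a SMARTer kit for stranded total RNA of pico input and read as single reads of 75 bases. Per the submitters' processing notes, reads were handled with Trimmomatic 0.39, STAR 2.7.10a, featureCounts 2.0.2 and DESeq2 1.30.1 on GRCm38 (mm10). The paper gives another STAR version. Use of strand in counting is not given in the sources used here. The deposited values are a score: counts divided by DESeq2 size factors and rounded to whole numbers by the authors, called normalized counts here. The table's fold changes and p-values of the authors' own comparison were not used.

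Spacing of the values gave about 47400000 and 32100000 reads on genes for mitochondria. For the rest, spacing left several candidates, and a fit to the values chose among them. It gave about 26300000 and 23500000 reads, so that read counts of the rest are estimates. A floor of 3 reads is 11.6, 7.65, 0.793 and 1.10 normalized counts, and covers counting error only. Whole reads could not be recovered in the rest libraries, so no count test was run.

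A gene needed 10 normalized counts or more in 2 libraries or more, which 12150 did, and was tested on log2(normalized count + 1) with limma 3.58.1 (R 4.3.3, mean-variance trend, 2-sided, Benjamini-Hochberg, threshold 0.05). Fold changes are on that scale. The limma step was tested on simulated data. Lengths are of the principal GENCODE M21 transcript, and 15736 of 15746 identifiers matched. The members and lists were chosen with earlier results of these data known. Named genes are the 10 members, the 12 most abundant and all called genes of the wider list, the thick filament list and the 5 most alike genes, of which 1 gene and a stretch of sequence are not reported here. Alternatives changed the scaling, pseudocount, filter, trend, block and libraries.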

Additional observations from a re-analysis of the deposited data

How the results depend on the processing

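The counts of calls depended strongly on the processing, and the causes were not tested. As reported, 1 of the 10 genes was called higher and 0 lower, 3 and 2 of the wider list, 0 of the thick filament list lower, and 262 and 169 of all genes. With size factors recomputed, 3 of the 10 were called higher. Quantile normalization called 4 higher and 2 lower, 5 of the thick filament list lower, and 879 genes higher and 745 lower. The median of the 10 was then 0.77, and Tpm1 (-0.12) and Actn2 (-0.64) turned. Scaling to the library total called all 10, all 48 of the wider list and all 11 of the thick filament list lower and 0 of the 10 or the 48 higher, with 12022 genes lower and 2 higher and a median of the 10 of -2.61. It reversed Actc1 (-3.11), Acta1 (-3.01), Tnnt2 (-2.11), Tnni3 (-2.41), Tnnc1 (-2.41), Tpm1 (-2.60), Actn2 (-3.96), Tcap (-2.39) and Csrp3 (-2.62). Scaling to the total without the mitochondrial chromosome, which moved the median of all genes to -0.98, gave 0 of the 10 higher and 1 lower, 15 of the wider list lower and 0 higher, 3 of the thick filament list lower, 129 genes higher and 3819 lower, a median of 0.51, and -0.84 for Actn2. The protein-coding total gave 6 of the 10 and 7 of the wider list higher, with 615 genes higher and 412 lower.

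A pseudocount of 0.1 left 0 calls in any list or over all genes, although 1694 genes were higher and 1754 lower at an unadjusted limma p under 0.05. A pseudocount of 10 gave 6 of the 10 and 6 of the wider list higher, with 536 genes higher and 580 lower. With no filter, 630 genes were lower. With means above 50, 6 of the 10 were higher, 6 and 6 of the wider list higher and lower, 2 of the thick filament list lower, and 790 genes higher and 670 lower. Without the mean-variance trend, 0 of the 10 and 0 of the wider list were called, with 24 genes higher and 143 lower.

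The replicate numbers are shared between fractions, but nothing says that they mark the same animal, and the deviations of same-numbered libraries correlated at r = 0.13 over 12150 genes. The replicate block called 5 of the 10 and 7 of the wider list higher, 2 of the thick filament list lower, and 470 genes higher and 309 lower.

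Without 1 library, the lone library being assumed to vary like the other fraction, each of the 4 fits called 0 genes in every list and 0 of all genes, with 590 to 2333 genes higher at an unadjusted p under 0.05. Log2 fold changes of Tnnt2 then ranged from 1.62 to 2.14 and of Acta1 from 0.11 to 1.82, and of Actn2 from -0.14 to 0.20, below 0 without mitochondrial replicate 1 (-0.14) and without rest replicate 2 (-0.01). With the length trend removed, 0 of the 10 and 0 of the wider list were called, with 8 genes higher and 33 lower, and the median of the 10 was 0.39. The difference in the share of counts outside the mitochondrial chromosome, 0.758 percentage points, was -0.492 of all counts and 3.61 of protein-coding counts, and ranged from 0.248 to 1.27 without 1 library. Ldb3 kept its direction in all 16 alternatives.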
